A study of Mus musculus with 6 samples.

Results

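Leukocyte miR-142-3p, miR-142-5p, miR-150 and miR-223 were examined in whole aortas of mice with and without deletion of the RNase Dicer in endothelial cells (ECs). They were picked out of the deposited table by name and make up 4 of the 596 mouse miRNA assays, of which 461 gave a signal in at least 1 aorta. The arrays held 3 EC-Dicerflox aortas (VE-Cadherin-CreERT2Dicer1flox/flox/Apoe-/-) and 3 EC-DicerWT aortas (VE-Cadherin-CreERT2Dicer1WT/WT/Apoe-/-). All 6 mice therefore lacked apolipoprotein E and carried the Cre recombinase that the VE-cadherin promoter restricts to ECs, all were treated with tamoxifen (5 days in a row, at 2 mg for 20 g of body weight), and all then received a high-fat diet for 4 weeks. The labels give an age of 6 to 8 weeks, which in the methods of the study is the age of the mice put on the diet. The labels call the mice male where the methods of the study call them female. By this design leukocytes of EC-Dicerflox mice carried the floxed alleles but were not a target of the Cre recombinase. Dicer1 mRNA was not among the assays of the table, so that the deletion could not be checked in it. The study itself reported reduced, not absent, Dicer mRNA in aortas and in isolated aortic ECs of EC-Dicerflox mice. It found Dicer expression in myeloid cells of these mice unaffected.

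Leukocytes that enter the arterial wall bring their own miRNAs with them. MiR-142 is made in nearly all cells of the blood lineage and yields mature miRNAs from both arms of its hairpin, with different seeds and thus different targets. MiR-150 is abundant in mature B and T cells, where it restrains the transcription factor c-Myb, and miR-223 is abundant in granulocytes, monocytes and macrophages, where it limits granulocyte production and activation. In RNA of a whole aorta, fewer leukocytes and less of a miRNA per leukocyte cannot be told apart.

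The mature sequences are shown because the arms of miR-142 are read by separate assays and compared below. Mature entries were matched in RefSeq (GRCm38.p6) for 3 of the 4 members, and capitals mark the seed, bases 2 to 8. MiR-142-3p lies at chr11:87756903-87756925 and miR-142-5p at chr11:87756867-87756887, both on the plus strand in Mir142, and miR-223 (the 3p arm) lies at chrX:96242884-96242905 on the plus strand in Mir223.
miR-142-3p: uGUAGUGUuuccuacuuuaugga
miR-142-5p: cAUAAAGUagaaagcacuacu
miR-223: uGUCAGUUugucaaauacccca

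No other mature entry in the RefSeq table carried one of these 3 seeds. The hairpin of Mir142 (64 bases, chr11:87756864-87756927, plus strand) is printed with both mature strands in capitals to show that the arms come from 1 precursor, the 5p strand first.
Mir142: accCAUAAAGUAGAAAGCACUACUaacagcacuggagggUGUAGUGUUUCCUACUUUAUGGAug

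By the RefSeq gene table, Mir142 is overlapped by Mir142b. Mir150 lies on chromosome 7 and overlaps no listed gene, while Mir223 overlaps F630028O10Rik on chromosome X.

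Each value was deposited as a raw CT, the PCR cycle at which the signal of an assay crosses its threshold, so that a higher CT means less RNA and 1 cycle corresponds to a factor of 2 at full amplification. Wells without a signal are listed at 40. Assays differ in how well they amplify, so CT values were compared between aortas and not read as amounts of one miRNA against another. Between 375 and 415 miRNA assays per aorta were under 40, the fewest in EC-Dicerflox replicate 3, and the median CT of the 350 assays under 40 in all aortas was highest in that sample (28.2, against 26.4 to 27.5 in the other 5). Where leaving out this aorta turned the direction of a comparison of the members or moved it by over 1.5 times, the value without it is also given. The labels call the samples biological replicates, and the precision is limited by 3 arrays per group.

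All 4 members were under 40 in all 6 aortas. The raw CT of miR-142-3p was 23.0, 22.4 and 24.2 in EC-Dicerflox replicates 1, 2 and 3, and 21.8, 23.0 and 23.2 in EC-DicerWT replicates 1, 2 and 3. That of miR-142-5p was 29.5, 28.8 and 30.7 in EC-Dicerflox and 28.0, 28.3 and 29.1 in EC-DicerWT aortas. The earliest signal of each of these assays came from EC-DicerWT replicate 1 and the latest from EC-Dicerflox replicate 3, and the raw values of the groups overlapped.

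The raw CT of miR-150 was 20.8, 19.6 and 22.0 in EC-Dicerflox and 19.9, 19.0 and 21.8 in EC-DicerWT aortas. In both groups, replicate 2 had the most and replicate 3 the least miR-150 by raw CT, and the values covered 3.06 cycles. The raw CT of miR-223 was 21.1, 20.8 and 21.4 in EC-Dicerflox and 21.2, 21.1 and 21.0 in EC-DicerWT aortas, a range of only 0.61 cycles over all 6.

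**Figure D1:**
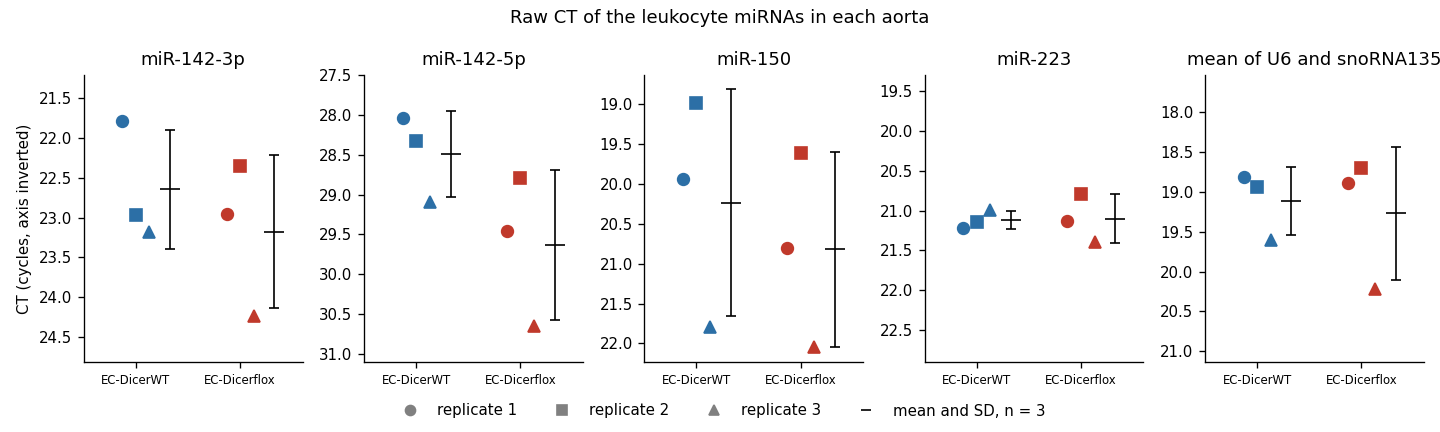
Raw CT (cycles, inverted so that more RNA is higher) of each miRNA and of the mean of U6 and snoRNA135 in 3 EC-DicerWT (blue) and 3 EC-Dicerflox (red) aortas, each panel spanning the same number of cycles; marker shapes give the replicate number and bars the mean and SD. The values of miR-223 lie within 0.61 cycles, while those of miR-150 cover 3.06 cycles.

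The raw CT of miR-223 hardly moved where that of most miRNAs did. Its SD over the 6 aortas was 0.207 cycles, the second smallest of 350 miRNA assays after that of miR-145 (0.0979 cycles), a smooth muscle miRNA, and the median SD of all assays was 0.865 cycles. Raw CT is not corrected for the amount of RNA, so a steady raw CT is not a steady level. After subtraction of U6 and snoRNA135, the SD of miR-223 was 0.509 cycles, against a median of 0.481 cycles. In EC-Dicerflox replicate 3, most miRNAs came up later than in the other EC-Dicerflox aortas, by a median of 1.67 cycles. MiR-223 came up 0.44 cycles later, a smaller shift than that of most assays (6.86% had a smaller one), whereas the shifts of miR-142-3p, miR-142-5p and miR-150 were 1.58, 1.52 and 1.84 cycles. In EC-DicerWT replicate 3, the median shift was 0.936 cycles. MiR-223 came up 0.194 cycles earlier there (a shift of -0.194 cycles), and miR-150 came up 2.32 cycles later, more than 91.7% of the assays. U6, the small nuclear RNA used as a control, also covered a narrow range of 0.843 cycles, while the control snoRNA135 covered 2.28 cycles.

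**Figure D2:**
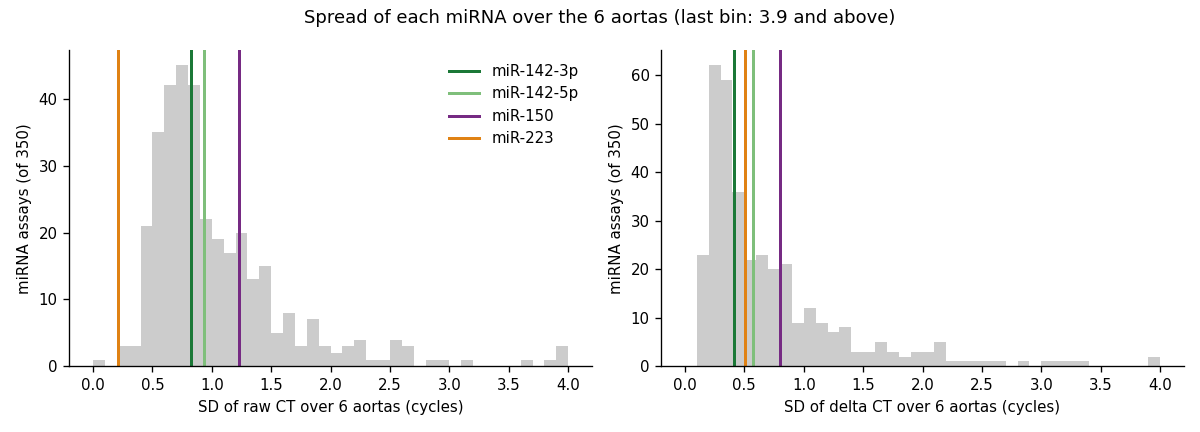
Number of miRNA assays (of the 350 under 40 in all aortas) by the SD over the 6 aortas, for raw CT (left) and for delta CT, which is CT less the average of U6 and snoRNA135 (right), in cycles; coloured lines mark the 4 leukocyte miRNAs. MiR-223 lies at the low end for raw CT (0.207 cycles) and near the middle after normalization (0.509 cycles).

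For the comparison of the groups, each CT was reduced by the average of the 4 U6 and snoRNA135 wells of that aorta, which gives the delta CT. MiR-142-5p had the largest difference of the 4. Its delta CT was 10.6, 10.1 and 10.4 cycles in EC-Dicerflox and 9.23, 9.39 and 9.48 cycles in EC-DicerWT aortas. All 3 EC-Dicerflox aortas thus had less miR-142-5p than every EC-DicerWT aorta (two-sided p = 0.1 by exact permutation, the lowest value 3 against 3 can give). The log2 fold change, EC-Dicerflox over EC-DicerWT, was -0.996 (standard error 0.25, 95% interval -1.64 to -0.35), a level of 0.501-fold. In pairs of the same replicate number it was -1.34, -0.71 and -0.94 (exact sign-flip test, two-sided p = 0.25). With groups that do not overlap, any pairing gives the same direction in all pairs, so the pairs are no separate test. The unadjusted limma p-value of miR-142-5p was 0.00989, and its p-value adjusted by Benjamini-Hochberg over the 461 assays was 0.923.

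No miRNA assay passed an adjusted p-value of 0.05 in limma (0 of 461, 0%), the 4 members included. Without adjustment, 9 of the 461 assays (1.95%) were lower in EC-Dicerflox aortas at a limma p-value under 0.05 and 5 (1.08%) were higher, 3.04% in all, and miR-142-5p was the only member among them. Its p-value was the 4th smallest of all assays. The groups were separate in delta CT, with no overlap, for 20 assays (4.34%) with less and 28 (6.07%) with more RNA in EC-Dicerflox aortas, 10.4% in all. MiR-142-5p is 1 of the 20. With U6 alone as the control RNA, its log2 fold change was -0.913 and its unadjusted limma p-value 0.0942.

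The other arm of the hairpin, miR-142-3p, was less clearly set apart. Its delta CT was 4.06, 3.65 and 4.01 cycles in EC-Dicerflox and 2.98, 4.02 and 3.57 cycles in EC-DicerWT aortas, so that the groups overlapped. EC-DicerWT replicate 1 had the highest level, and the other 5 aortas lay between 3.57 and 4.06 cycles. The log2 fold change was -0.38 (standard error 0.36, 95% interval -1.28 to 0.52; adjusted limma p-value 0.923; two-sided p = 0.3 by exact permutation). In pairs of the same replicate number it was lower in 2 of 3. With single aortas left out, it ranged from -0.63 (without EC-DicerWT replicate 2) to -0.11 (without EC-DicerWT replicate 1).

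The lymphocyte miRNA miR-150 varied most among the 4. Its delta CT was 1.91, 0.903 and 1.82 cycles in EC-Dicerflox and 1.13, 0.0453 and 2.18 cycles in EC-DicerWT aortas. The EC-DicerWT aortas held both the highest level (replicate 2) and the lowest (replicate 3), and their SD was 1.07 cycles, against 0.559 cycles in EC-Dicerflox aortas. The log2 fold change was -0.43 (standard error 0.64, 95% interval -2.05 to 1.19; adjusted limma p-value 0.923; two-sided p = 0.7 by exact permutation). It was lower in 2 of 3 pairs of replicate numbers. With single aortas left out, it ranged from -0.96 (without EC-DicerWT replicate 3) to 0.11 (without EC-DicerWT replicate 2).

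The myeloid miRNA miR-223 had a delta CT of 2.24, 2.08 and 1.17 cycles in EC-Dicerflox and 2.41, 2.20 and 1.38 cycles in EC-DicerWT aortas. In both groups replicate 3 had the highest level, and the other 4 aortas lay between 2.08 and 2.41 cycles. The control RNAs came up later in both of these aortas, at an average CT of 20.2 in EC-Dicerflox and 19.6 in EC-DicerWT replicate 3 against 18.7 to 18.9 in the other 4, while the raw CT of miR-223 was 21.4 and 21.0 there. The log2 fold change was 0.17 (standard error 0.45, 95% interval -0.97 to 1.30; adjusted limma p-value 0.953; two-sided p = 0.6 by exact permutation). In pairs of the same replicate number it was 0.17, 0.12 and 0.21, the same direction in 3 of 3 pairs (exact sign-flip test, two-sided p = 0.25, the lowest the design can give), and its unadjusted limma p-value with the number as a block was 0.518. The delta CT of EC-Dicerflox replicate 1 (2.24 cycles) lay above that of EC-DicerWT replicate 2 (2.20 cycles). The 3 of 3 therefore depends on how replicates 1 and 2 are paired. On the raw CT, with no control RNA, the groups differed by -0.0147 cycles (21.1 ± 0.306 against 21.1 ± 0.118, SD, n = 3 each; two-sided p = 0.9 by exact permutation). With single aortas left out, the log2 fold change ranged from -0.16 (without EC-Dicerflox replicate 3) to 0.47 (without EC-DicerWT replicate 3), and it was -0.0403 without EC-DicerWT replicate 1. The intervals of miR-142-3p, miR-150 and miR-223 each include 0 and also changes as large in size as the estimate of miR-142-5p.

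**Figure D3:**
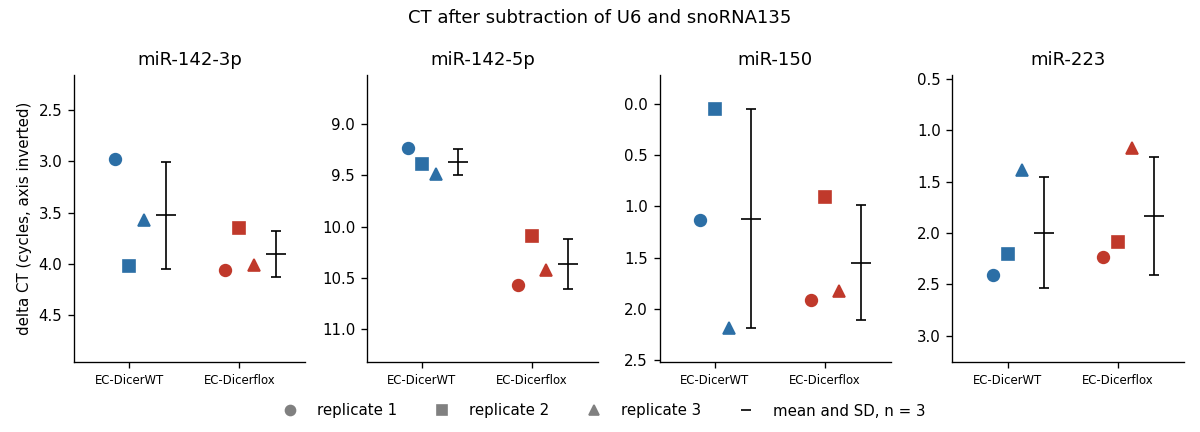
Delta CT (CT less the average of the U6 and snoRNA135 wells, in cycles, inverted so that more RNA is higher) of the 4 miRNAs in 3 EC-DicerWT (blue) and 3 EC-Dicerflox (red) aortas, each panel spanning the same number of cycles, with mean and SD (n = 3). The groups overlap for all but miR-142-5p, where EC-Dicerflox aortas lie at 10.1 to 10.6 and EC-DicerWT aortas at 9.23 to 9.48 cycles.

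Set against all assays, 3 of the 4 members had lower and 1 had a higher estimate in EC-Dicerflox aortas, while 210 of the 461 assays were lower and 251 were higher. The median log2 fold change was -0.40 over the 4 members and 0.082 over the 461 assays. As miR-142-3p and miR-142-5p are arms of the same hairpin, this count and the median do not rest on 4 separate genes. Relative to that median, miR-142-5p was at -1.08, miR-150 at -0.51, miR-142-3p at -0.46 and miR-223 at 0.084. Of all assays, 13.7% had a lower estimate than miR-142-5p, 24.5% than miR-150, 26.2% than miR-142-3p and 56.4% than miR-223.

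**Figure D4:**
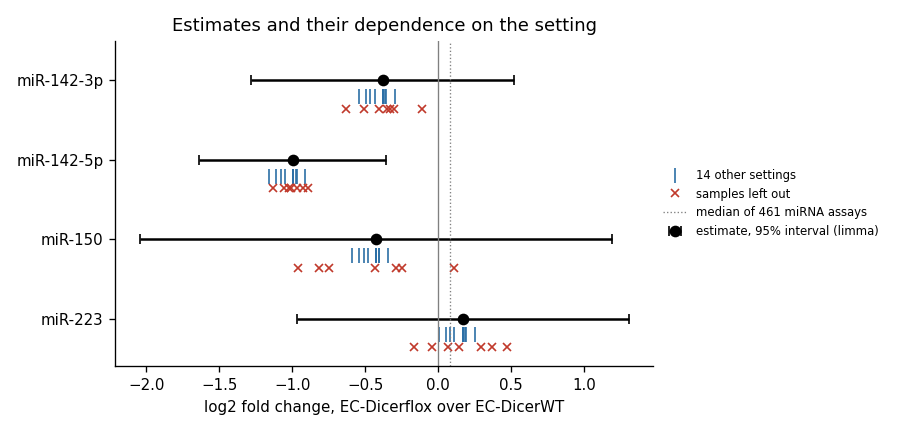
Log2 fold change of each miRNA (EC-Dicerflox over EC-DicerWT) with its 95% interval from limma (black), the estimates under 14 other settings (blue) and with samples left out (red), and the median of 461 assays (dotted line at 0.082). The estimate of miR-142-5p stays between -1.16 and -0.89, and those of miR-150 and miR-223 cross 0 when single aortas are left out.

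The arms of miR-142 were also compared within each aorta, which needs no control RNA. The CT of miR-142-5p minus that of miR-142-3p was 6.51, 6.45 and 6.42 cycles in EC-Dicerflox and 6.25, 5.36 and 5.92 cycles in EC-DicerWT aortas. The EC-Dicerflox aortas lay close to each other (SD 0.0444 cycles), whereas the EC-DicerWT aortas spread with an SD of 0.448 cycles, and all 3 EC-Dicerflox values lay above all 3 EC-DicerWT values. The mean difference between the groups was 0.615 cycles (standard error 0.26), a 1.53-fold lower 5p to 3p ratio in EC-Dicerflox aortas (two-sided p = 0.1 by exact permutation, the lowest the design can give; 0.6 after Benjamini-Hochberg adjustment over the 6 differences between members). In pairs of the same replicate number it was 0.256, 1.08 and 0.506 cycles, the same direction in 3 of 3 pairs (exact sign-flip test, two-sided p = 0.25, the lowest the design can give). As the groups did not overlap, any pairing would give this direction in 3 of 3 pairs, so the pairs are no separate test. The strand difference and the estimate of miR-142-5p rest on the same wells. Without EC-DicerWT replicate 2, the mean difference was 0.375 cycles, and without EC-DicerWT replicate 1 it was 0.819 cycles.

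Both strands of a hairpin, paired by their names within a card, were under 40 in all 6 aortas for 21 hairpins, miR-142 included. In 2 of the 21 (9.52%) the strand difference of the groups did not overlap, in either direction, and these were miR-142 and miR-322 (miR-322* minus miR-322, a change of 0.869 cycles). The change of miR-142 was the 8th largest in size, and the median size of the 21 was 0.388 cycles. The largest was that of miR-673 (-1.88 cycles, 3p strand minus the other), followed by that of miR-342 (1.69 cycles), another miRNA of leukocytes, with an SD of 4.14 cycles in EC-Dicerflox aortas. Of the 21, 2 had a smaller SD in EC-Dicerflox aortas than miR-142 and 6 had a smaller SD in EC-DicerWT aortas.

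**Figure D5:**
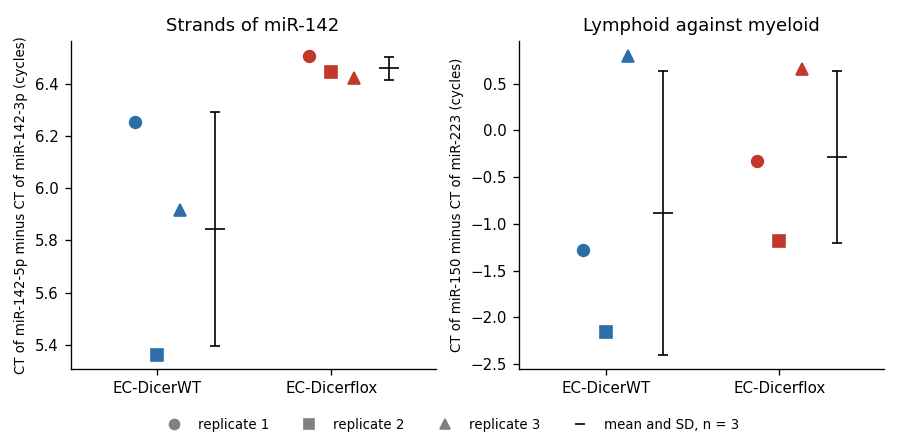
CT differences within each aorta, in cycles, between the strands of miR-142 (left) and between miR-150 and miR-223 (right), in 3 EC-DicerWT (blue) and 3 EC-Dicerflox (red) aortas with mean and SD (n = 3). The strand difference is 6.42 to 6.51 cycles in EC-Dicerflox and 5.36 to 6.25 cycles in EC-DicerWT aortas, while for miR-150 and miR-223 replicate 3 of both groups stands above the others.

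Lymphoid miR-150 was set against myeloid miR-223 in the same way. The CT of miR-150 minus that of miR-223 was -0.325, -1.18 and 0.651 cycles in EC-Dicerflox and -1.28, -2.15 and 0.799 cycles in EC-DicerWT aortas. In both groups, replicate 2 had the most and replicate 3 the least miR-150 relative to miR-223, and the values of the groups overlapped. The difference covered 2.95 cycles over the 6 aortas, the widest range of the 6 differences between members. The groups differed by 0.594 cycles (standard error 1.02; -0.285 ± 0.917 against -0.879 ± 1.52, SD, n = 3 each; two-sided p = 0.7 by exact permutation). With single aortas left out, it ranged from -0.0435 cycles (without EC-DicerWT replicate 2) to 1.43 cycles (without EC-DicerWT replicate 3), and it was 0.126 cycles without EC-Dicerflox replicate 3.

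Among the other 4 differences between members, miR-142-5p against miR-223 was largest, at 1.16 cycles (8.53 ± 0.645 in EC-Dicerflox and 7.37 ± 0.66 in EC-DicerWT aortas, SD, n = 3 each; two-sided p = 0.2 by exact permutation), with the same direction in 3 of 3 pairs of replicate numbers. MiR-142-3p against miR-223 differed by 0.548 cycles, miR-142-5p against miR-150 by 0.568 cycles, and miR-142-3p against miR-150 by -0.0467 cycles (two-sided p = 0.5, 0.5 and 1 by exact permutation). These 3 differences moved with single aortas. That of miR-142-3p against miR-223 ranged from 0.0692 cycles (without EC-DicerWT replicate 1) to 0.878 cycles (without EC-DicerWT replicate 3), and it was 0.169 cycles without EC-Dicerflox replicate 3. That of miR-142-5p against miR-150 ranged from 0.0948 cycles (without EC-DicerWT replicate 3) to 1.11 cycles (without EC-DicerWT replicate 2). That of miR-142-3p against miR-150 ranged from -0.556 cycles (without EC-DicerWT replicate 3) to 0.74 cycles (without EC-DicerWT replicate 2), and it was 0.0427 cycles without EC-Dicerflox replicate 3. After adjustment over the 6 differences, the p-values ranged from 0.6 to 1.

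The arms of miR-142 followed each other more closely across the 6 aortas than any other pair of the 4 miRNAs. Likeness was taken as the SD over the 6 aortas of the CT difference between miRNAs, which is free of the control RNAs, among the 350 assays. For the arms of miR-142 this SD was 0.441 cycles, which ranked miR-142-3p as the 10th most alike of 349 assays to miR-142-5p, and miR-142-5p as the 51st most alike to miR-142-3p. For miR-150, the ranks of miR-142-5p, miR-142-3p and miR-223 were 89, 174 and 262 of 349, with SDs of 0.749, 0.90 and 1.17 cycles, and the median SD of all assays to miR-150 was 0.901 cycles. For miR-223, miR-142-3p ranked 161, miR-142-5p 203 and miR-150 260.

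The assays most alike were miR-148b (0.179 cycles), miR-466g (0.292) and miR-340-3p (0.292) for miR-142-3p. They were miR-877* (0.303 cycles), miR-543 (0.347) and miR-200a (0.363) for miR-142-5p. They were miR-1930 (0.412 cycles), miR-1198 (0.47) and miR-380-5p (0.492) for miR-150, and miR-1937b (0.198 cycles), miR-145 (0.205) and miR-1937c (0.254) for miR-223. With 6 points that share RNA input and card, these are descriptions only.

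Other miRNAs enriched in leukocytes were split in direction. Of 7 listed, 6 were tested, 3 with lower and 3 with higher estimates in EC-Dicerflox aortas (median -0.081), and 0 were below 0.05 in the unadjusted limma p-value. MiR-342-3p, which is abundant in lymphocytes, had a log2 fold change of -0.46, and miR-511, which lies in the macrophage mannose receptor gene, of -0.27. MiR-146a and miR-155, which inflammatory signals induce in leukocytes and also in other cells, had estimates of 0.40 and 0.25. The delta CT of miR-146a was 1.58, 1.501 and 1.51 cycles in EC-Dicerflox and 2.16, 1.82 and 1.81 cycles in EC-DicerWT aortas. Its groups did not overlap, with more RNA in EC-Dicerflox aortas, as for 6.07% of all assays (unadjusted limma p-value 0.148). MiR-181a, known from lymphocyte development, had an estimate of 0.11. MiR-342-5p had an estimate of -2.16 with a standard error of 2.43, and its raw CT reached 38.6 in EC-Dicerflox replicate 3. MiR-146b was at 40 in all 6 aortas. The opposite strand of the miR-150 hairpin, miR-150*, was at 40 in all aortas but EC-Dicerflox replicate 2, where it read 39.8.

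Markers of other cells in the aorta are given beside these results. The red cell miRNAs miR-451 and miR-486, which would mark blood left after perfusion, had a mean delta CT of 2.23 to 3.22 cycles in EC-Dicerflox and 1.71 to 3.49 cycles in EC-DicerWT aortas. In both groups, replicate 3 had the lowest level of these by delta CT. Their log2 fold changes were 0.21 and -0.22, and 0 of the 2 were below 0.05 in the unadjusted limma p-value. The endothelial miRNAs miR-126-3p and miR-126-5p had a mean delta CT of 0.03 to 0.826 cycles in EC-Dicerflox and 1.04 to 1.27 cycles in EC-DicerWT aortas, which is more RNA in EC-Dicerflox aortas, with no overlap (6.07% of single assays had no overlap in this direction). Smooth muscle miR-143 and miR-145 had a mean delta CT of -3.76 to -2.93 cycles in EC-Dicerflox and -3.19 to -2.88 cycles in EC-DicerWT aortas. Of 4 striated muscle miRNAs tested, 4 had higher estimates. These were 0.43 for miR-1, 0.13 for miR-133a, 0.31 for miR-133b and 2.02 (standard error 2.46) for miR-208, which was at 40 in 3 of 6 aortas. No endothelial, smooth muscle or striated muscle marker was below 0.05 in the unadjusted limma p-value, and the smallest was 0.0727, for miR-126-5p. The part of blood content or of other cells in the values of the 4 leukocyte miRNAs was not tested.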

How the data were processed

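Per the methods of the study, RNA of the aortas went through reverse transcription and pre-amplification (Megaplex rodent set) and was measured on TaqMan MicroRNA cards. The authors deposited the CT of each assay without normalization, listed at 40 where no signal was seen; the setting of threshold and baseline is not given in the sources used here. Column names matched the labels for all 6 samples, with 0 other columns of sample values. The cards were told apart by the style of the assay numbers, and the 4 members share 1 card.

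Groups were compared with lmFit and eBayes of limma 3.58.1 in R 4.3.3 (prior of 1.31 degrees of freedom) on minus delta CT, for 461 assays under 40 in at least 1 aorta, with Benjamini-Hochberg adjustment over all 461 and a threshold of 0.05. Differences within an aorta were compared by exact permutation (20 arrangements) in scipy 1.17.1. The limma step was tested on simulated data with 200 changed miRNAs. Members and lists were chosen with earlier results of these data known. Named are the members, all detected miRNAs of the lists, and for each member the 3 most alike assays; miRNAs such as miR-342 among the strand differences were named after their values were seen. The comparison of strands over 21 hairpins was added after the data were seen.

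The replicate numbers, which come from the labels, were used as pairs only in the pair differences, the sign-flip tests and the block setting. The main limma fit and the exact permutations were unpaired. Once group means were removed from the 350 assays, aortas numbered 1, 2 and 3 correlated across groups at 0.15, 0.224 and 0.431, all above the limit of 0.1 set for pairing. EC-Dicerflox replicate 1 with EC-DicerWT replicate 2 (0.285) and EC-Dicerflox replicate 2 with EC-DicerWT replicate 1 (0.117) were above it too, so that the numbers set replicate 3 apart but do not part 1 from 2. Alternatives were other control RNAs, other treatments of wells at 40, other filters and estimates of spread, a block for the replicate number, and samples left out.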

Additional observations from a re-analysis of the deposited data

How the results depend on the processing

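No member passed an adjusted p-value of 0.05 under any of the 14 alternative settings or with any sample left out. Over the 14 settings, the log2 fold changes ranged from -0.54 to -0.30 for miR-142-3p, from -1.16 to -0.913 for miR-142-5p, from -0.59 to -0.34 for miR-150 and from 0.005 (snoRNA202 alone) to 0.25 for miR-223. MiR-142-5p kept an unadjusted p-value under 0.05 in 13 of 14, and lost it with U6 alone (-0.913, unadjusted limma p-value of 0.0942). With the replicate number as a block, its unadjusted limma p-value was 0.0294, the exact sign-flip p of its strand difference was 0.25, no other member went below 0.05 unadjusted, and 11 assays were lower and 4 higher at an unadjusted p-value under 0.05 (9 and 5 without the block). Leaving out samples gave -0.63 to -0.11 for miR-142-3p, -1.13 to -0.89 for miR-142-5p, -0.96 to 0.11 for miR-150 and -0.16 to 0.47 for miR-223, the latter below 0 without EC-Dicerflox replicate 3 (-0.16) or EC-DicerWT replicate 1 (-0.0403). Without replicate 3 of both groups, chosen after seeing the data, the values were -0.35, -1.02, -0.82 and 0.14, respectively.

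With samples left out, the CT of miR-142-3p minus that of miR-150 ranged from -0.556 to 0.74 cycles (0.0577 without EC-Dicerflox replicate 1, 0.0427 without EC-Dicerflox replicate 3, 0.74 without EC-DicerWT replicate 2), and that of miR-150 minus miR-223 from -0.0435 to 1.43 cycles. The strand difference of miR-142 ranged from 0.375 to 0.819 cycles, that of miR-142-5p minus miR-150 from 0.0948 to 1.11, of miR-142-3p minus miR-223 from 0.0692 to 0.878, and of miR-142-5p minus miR-223 from 0.802 to 1.53. Among all assays, limma called 0 at an adjusted p-value of 0.05 in each of the 14 settings, 2 without EC-Dicerflox replicate 1 and 1 without EC-Dicerflox replicate 3, so 0 to 2 over the samples left out. At an unadjusted p-value under 0.05, 14 were lower with snoRNA202 alone, and 3 were higher with U6 alone, 14 with the ordinary linear model, 8 with trend and robust moderation and 4 to 10 with samples left out. The median log2 fold change of the assays tested became -0.079 if snoRNA202 and 0.17 if U6 was the sole control RNA, against 0.082. The cause of these shifts was not tested.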
